A study of Schizosaccharomyces pombe with 12 samples.

Results

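The 10 genes described here encode core heterochromatin and silencing factors of fission yeast, Schizosaccharomyces pombe, and were followed in wild-type cells moved from ordinary water to heavy water. Heterochromatin in this yeast lies at centromeres, telomeres and the silent mating-type region. It is marked by methylation of histone H3 at lysine 9, which the methyltransferase Clr4 writes and the HP1 proteins Swi6 and Chp2 bind. The histone deacetylases Clr3, which works in the SHREC complex with Clr1 and Clr2, and Sir2 keep these regions hypoacetylated. The RNA interference proteins Dcr1 and Ago1 turn transcripts of the repeats into small RNAs that guide methylation to centromeres, and the telomere repeat binding protein Taz1 guides it to chromosome ends. The members were taken by gene symbol from the deposited tables. All 10 were found among 7015 listed features, and all 10 passed the filter on low counts that left 6683 features for testing.

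Total RNA was sequenced from 12 samples in 3 groups of 4. Wild-type cells without selection markers grew in YES, a rich medium of yeast extract and glucose with added adenine, uracil and leucine, and were labelled as being in exponential phase. The control group stayed in YES made with H2O. The other groups spent 5 h or 24 h in YES made with 100% D2O, water whose hydrogen atoms are deuterium. No H2O culture of matching duration was analysed here, so time in D2O, time in culture and the transfer itself cannot be told apart. The strain and its mating type are not given in the labels, and nothing states that the 4 samples came from separate cultures, so p-values measure the spread between these samples, which may be technical.

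Levels are given as normalised RPKM, that is reads per kilobase of listed feature length, scaled to library size after TMM normalisation between samples. Total counts lay between 26775612 and 27166349 per sample, and the members had between 522 and 6193 reads in each sample. These are relative abundances in bulk RNA, so fewer cells carrying a transcript and less of it per cell cannot be told apart. In the replicate 2 sample of the 24 h group the normalised level of clr1 stood slightly apart from the other samples of its group, and no change of a member was lost when that sample was left out. Changes were tested with edgeR's quasi-likelihood test across all features, and a gene counts as called where the p adjusted by Benjamini and Hochberg's method was under 0.05.

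Counts did not separate strands, and overlapping features shared reads. The feature clr3-antisense-1 lies over all of clr3 on the opposite strand, and its count was 1.02 to 1.06 times that of clr3 in every sample, beside a ratio of listed lengths of 1.04. By the RefSeq annotation of assembly ASM294v3, used here for neighbour relations only, clr1, clr4, sir2 and dcr1 also overlap other genes. The genes clr2, swi6, chp2, ago1 and taz1 overlap no other listed feature.

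After 5 h in D2O, 7 of the 10 members differed from the H2O control, beside 76.4% of all features tested, so a call by itself does not set the members apart. The RNA interference genes ago1 and dcr1, the methyltransferase gene clr4 and the SHREC gene clr1 were higher. The HP1 gene swi6, the SHREC gene clr2 and the deacetylase gene sir2 were lower. The share of all features called higher was 39.1% and the share called lower was 37.3%. The median log2 change was 0.12 over the members and 0.01 over all features, and the median absolute change was 0.30 and 0.35. No member changed at least 2-fold, beside 12.3% of all features. Scaling by library size alone gave a median log2 change of 0.21 over all features, and the split of the members was then 7 higher and 1 lower. On that scaling clr2 and sir2 were not called lower, and swi6 still was. With the estimated reads of overlapping genes removed, the split was 5 higher and 2 lower, with sir2 higher.

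After 24 h in D2O, 9 of the 10 members differed from the H2O control, beside 81.2% of all features. The same 4 genes, ago1, dcr1, clr4 and clr1, were higher, and swi6, chp2, clr2, sir2 and taz1 were lower. The shares of all features called higher and lower were 41.8% and 39.4%. The median log2 change was -0.17 over the members and 0.01 over all features, and the median absolute change was 0.59 and 0.47. The one member changed at least 2-fold was ago1, beside 21.1% of all features. Scaling by library size alone gave a median of 0.20 over all features, and the members then split into 5 higher and 3 lower. On that scaling clr2 and chp2 were not called lower, and clr3 was called higher. With the estimated reads of overlapping genes removed, 4 were higher and 4 lower, and sir2 was not called.

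Between 24 h and 5 h, 9 of the 10 members differed, beside 68.3% of all features. The genes ago1, dcr1, clr4 and clr1 were higher at 24 h and swi6, chp2, sir2, taz1 and clr3 were lower. All features split into 33.6% higher and 34.6% lower. The median log2 change was -0.04 over the members and -0.01 over all features, and the median absolute change was 0.39 and 0.25. No member differed at least 2-fold between these times, beside 6.37% of all features. This comparison was little affected by scaling, since library size alone also gave 4 members higher and 5 lower. The groups of samples did not overlap for 7 members at 5 h against H2O, 9 at 24 h against H2O and 9 at 24 h against 5 h, beside 69.3%, 76.3% and 61.2% of all features. The comparisons of 5 h and of 24 h with H2O share their control samples.

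**Figure D1:**
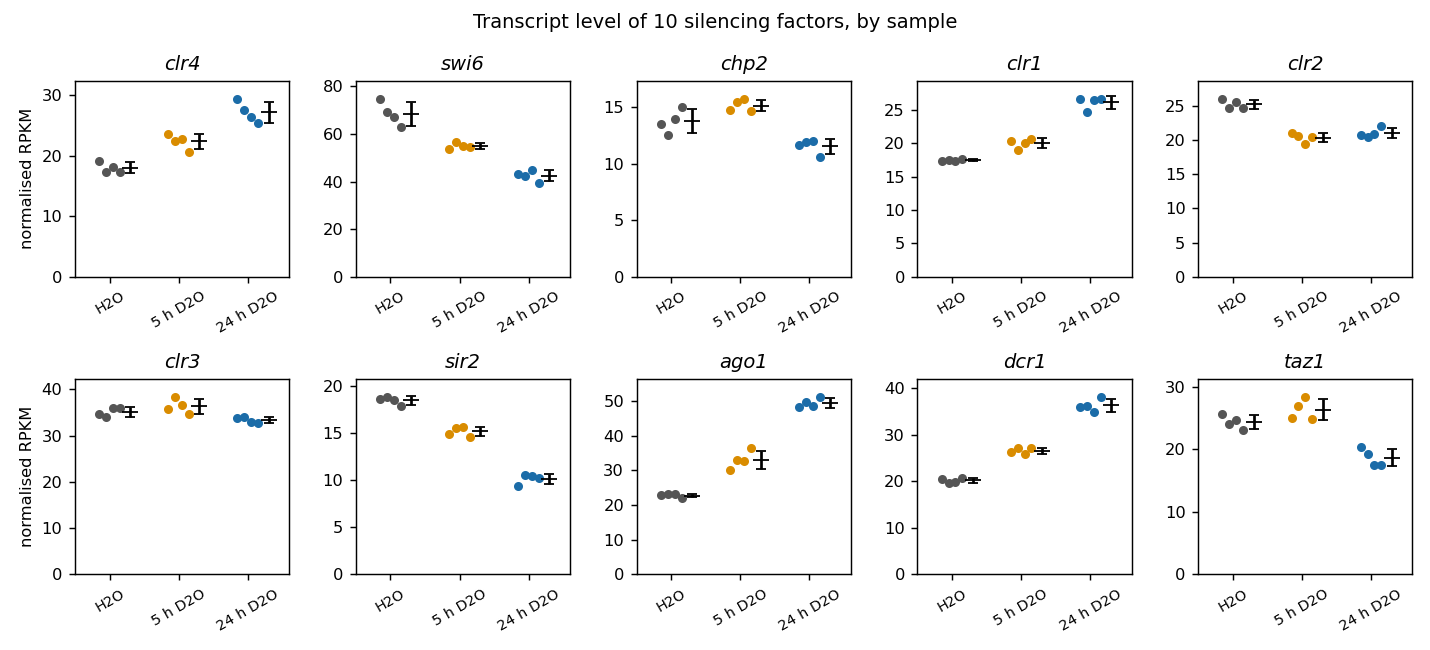
Normalised RPKM (vertical axes, from 0) of each of the 10 members in the H2O, 5 h D2O and 24 h D2O groups. Coloured points are the 4 samples of a group, and the black bar beside them is the mean with its SD. The points of ago1 lie at 3 separate levels, at 48.1 or more at 24 h, while those of clr3 stay between 32.8 and 38.4 in all 12 samples.

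**Figure D2:**
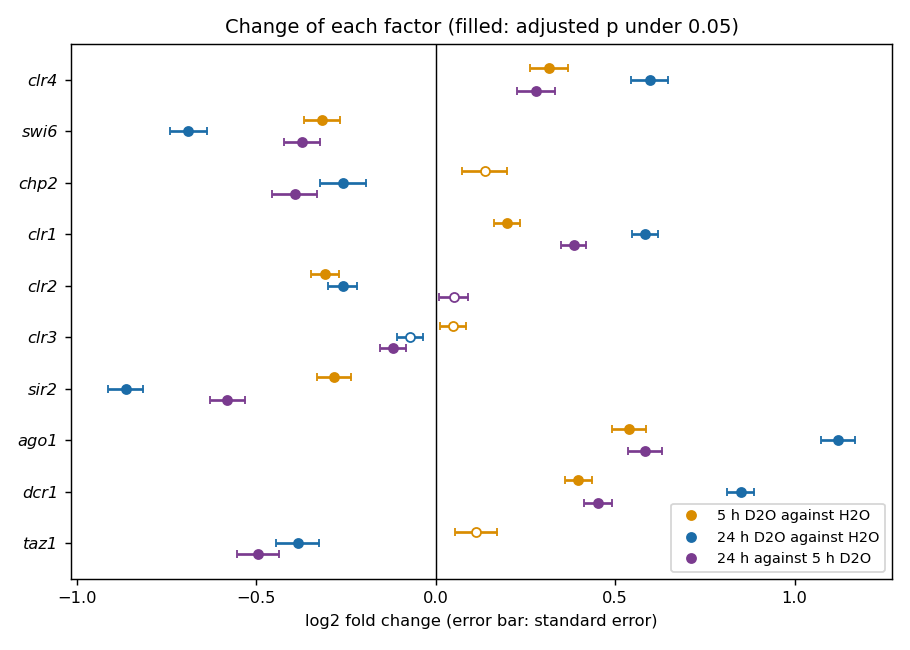
Log2 fold changes (horizontal axis) of each member in the 3 comparisons, with standard errors as bars; filled points have an edgeR adjusted p under 0.05. The point farthest to the right is ago1 at 24 h against H2O, at 1.12, and the one farthest to the left is sir2, at -0.86, whose count shares reads with its neighbour zrt1.

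Among the members that place or read the methyl mark, the transcript of the writer Clr4 rose while that of the reader Swi6 fell. The gene clr4 (SPBC428.08c) had 19.2, 17.3, 18.2 and 17.3 normalised RPKM in H2O, 23.6, 22.5, 22.8 and 20.7 at 5 h, and 29.4, 27.6, 26.4 and 25.4 at 24 h. Each group lay above the previous one without overlap. Relative to H2O, clr4 differed by 0.32 on the log2 scale at 5 h (SE 0.053, adjusted p = 7.64e-05, edgeR) and by 0.60 at 24 h (SE 0.053, adjusted p = 6.79e-08, edgeR). It differed by 0.28 between 24 h and 5 h (SE 0.052, adjusted p = 0.000284, edgeR).

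The listed clr4 feature is 4492 bases long, and meu6 (SPBC428.07), a gene known for its expression in meiosis, lies wholly inside it on the opposite strand. The reads of meu6 therefore count for clr4 as well, and meu6 itself was higher at 24 h, by 0.72 (SE 0.059). With the meu6 count removed, clr4 kept between 980 and 1058 reads per sample in H2O, between 1386 and 1526 at 5 h and between 1466 and 1689 at 24 h. These remaining reads also rose, with log2 fold changes of 0.31 at 5 h against H2O (SE 0.060, adjusted p = 0.000233, edgeR) and 0.47 at 24 h against H2O (SE 0.059, adjusted p = 3.87e-06, edgeR). Between 24 h and 5 h the value was 0.15 (SE 0.058, adjusted p = 0.0333, edgeR), against 0.28 with all reads.

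The HP1 gene swi6 (SPAC664.01c) had 74.8, 69.3, 67.1 and 62.9 normalised RPKM in H2O, 53.9, 56.8, 55.0 and 54.4 at 5 h, and 43.3, 42.5, 44.8 and 39.3 at 24 h. Every 24 h sample lay below every 5 h sample, and every 5 h sample below every H2O sample. Relative to H2O, the log2 fold change of swi6 was -0.32 at 5 h (SE 0.050, adjusted p = 4.57e-05, edgeR) and -0.69 at 24 h (SE 0.051, adjusted p = 8.03e-09, edgeR). Between 24 h and 5 h it was -0.37 (SE 0.051, adjusted p = 1.64e-05, edgeR), and the 24 h level was 0.620 of that in H2O.

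The other HP1 gene, chp2 (SPBC16C6.10), was called lower at 24 h and was not called at 5 h. It had 13.5, 12.6, 14.0 and 15.0 normalised RPKM in H2O, 14.7, 15.4, 15.7 and 14.7 at 5 h, and 11.6, 11.9, 12.01 and 10.54 at 24 h. The 5 h samples overlapped those in H2O, and the 24 h samples lay below both. Against H2O, chp2 had a log2 fold change of 0.14 at 5 h (SE 0.063, adjusted p = 0.0638, edgeR), which did not pass the test, and of -0.26 at 24 h (SE 0.064, adjusted p = 0.00189, edgeR). Between 24 h and 5 h it was -0.39 (SE 0.063, adjusted p = 7.67e-05, edgeR). Without the replicate 4 sample of the H2O group the 5 h value was 0.18 and was called (adjusted p = 0.0203, edgeR), and without the replicate 4 sample of the 24 h group, which shares the estimate of the spread, it was 0.14 and was called (adjusted p = 0.0498, edgeR). With non-coding features removed the 5 h value was 0.15 and was called (adjusted p = 0.0387, edgeR). On library-size scaling the values against H2O were 0.34 at 5 h, called, and -0.07 at 24 h, not called.

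Because a ratio of 2 genes within a sample does not depend on how samples are scaled to each other, 4 pairs of members were compared in this way in 3 comparisons, with two-sided exact permutation tests over samples adjusted over the 12 tests. The smallest p that 4 against 4 samples can give is 0.0286. The ratio of swi6 to chp2, per length, was 5.53, 5.52, 4.80 and 4.18 in H2O, 3.66, 3.68, 3.50 and 3.70 at 5 h, and 3.72, 3.58, 3.73 and 3.73 at 24 h. It was thus lower in every D2O sample than in any H2O sample, and the H2O samples spread more than the others. On the log2 scale the difference was -0.45 at 5 h against H2O (exact permutation p = 0.0286, adjusted 0.0381), -0.43 at 24 h against H2O (exact permutation p = 0.0286, adjusted 0.0381) and 0.02 at 24 h against 5 h (exact permutation p = 0.457, adjusted 0.457). Leaving out any 1 of the 5 h samples, or any 1 of the 24 h samples, gave differences against H2O of -0.46 to -0.42, with adjusted exact permutation p between 0.0623 and 0.0762. From 5 h to 24 h both HP1 genes fell, by 0.37 for swi6 and by 0.39 for chp2 on the log2 scale.

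The ratio of clr4 to swi6 was 0.257, 0.250, 0.271 and 0.275 in H2O, 0.439, 0.396, 0.415 and 0.381 at 5 h, and 0.679, 0.649, 0.590 and 0.646 at 24 h. The 3 groups did not overlap. The log2 difference was 0.63 at 5 h against H2O, 1.28 at 24 h against H2O and 0.65 at 24 h against 5 h, each with an exact permutation p of 0.0286 (adjusted 0.0381). With the meu6 reads removed from clr4 the differences were 0.63, 1.15 and 0.52, with the same adjusted p.

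**Figure D3:**
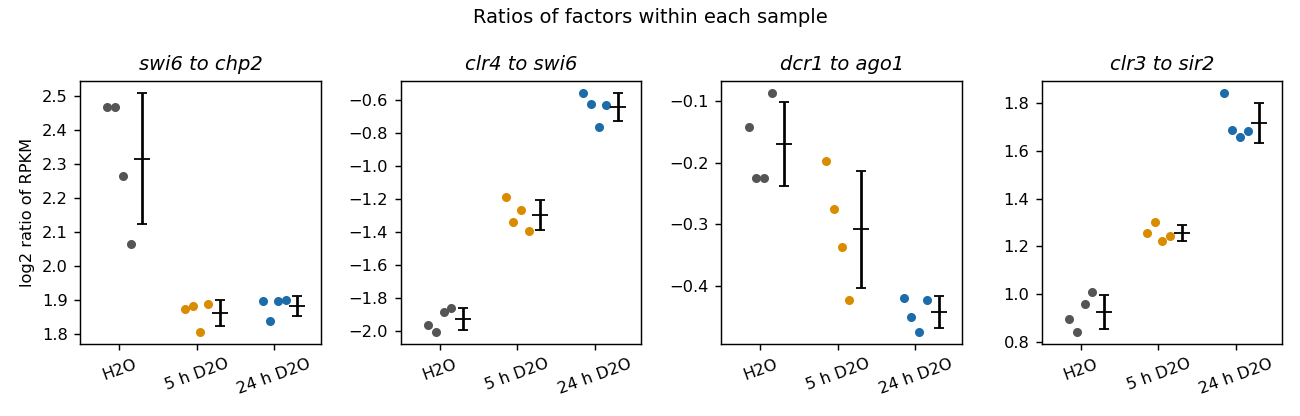
Log2 ratio of RPKM within each sample (vertical axes, not from 0) for 4 pairs of members; points are samples, and the black bar is the mean with its SD of the 4 samples. The ratio of swi6 to chp2 has a mean of 2.32 in H2O and of 1.86 and 1.88 in the D2O groups, while the ratio of clr4 to swi6 climbs from group to group.

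The subunits of SHREC did not move together. The gene clr1 (SPBC2D10.17), which encodes its zinc finger subunit, had 17.4, 17.5, 17.3 and 17.6 normalised RPKM in H2O, 20.3, 19.0, 20.1 and 20.7 at 5 h, and 26.7, 24.7, 26.5 and 26.7 at 24 h. The groups were fully separate. Against H2O, clr1 had a log2 fold change of 0.20 at 5 h (SE 0.036, adjusted p = 0.00014, edgeR) and 0.58 at 24 h (SE 0.035, adjusted p = 8.83e-10, edgeR). The value for 24 h against 5 h was 0.38 (SE 0.035, adjusted p = 2.92e-07, edgeR). Short overlaps with mhf1 and abc1-antisense-1 hold an estimated 3.92% of its reads in H2O, 3.58% at 5 h and 2.87% at 24 h (shares of group sums), and without them the value at 24 h against H2O was 0.60.

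The gene clr2 (SPAC1B3.17), for another SHREC subunit, had 26.1, 24.7, 25.7 and 24.7 normalised RPKM in H2O, 21.1, 20.7, 19.4 and 20.4 at 5 h, and 20.8, 20.5, 21.0 and 22.1 at 24 h. All 8 D2O samples lay below the H2O samples, and the 5 h and 24 h groups overlapped. Its level relative to H2O was lower by a log2 fold change of -0.31 at 5 h (SE 0.039, adjusted p = 4.61e-06, edgeR) and -0.26 at 24 h (SE 0.039, adjusted p = 2.09e-05, edgeR). The difference between 24 h and 5 h was 0.05 (SE 0.039, adjusted p = 0.28, edgeR). On library-size scaling the values against H2O were -0.11 at 5 h (adjusted p = 0.0517, edgeR) and -0.07 at 24 h (adjusted p = 0.17, edgeR), and neither was called.

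The gene clr3 (SPBC800.03), for the catalytic deacetylase of SHREC, had 34.7, 33.9, 36.1 and 35.9 normalised RPKM in H2O, 35.6, 38.4, 36.5 and 34.6 at 5 h, and 33.7, 34.1, 33.0 and 32.8 at 24 h. Against H2O, clr3 had a log2 fold change of 0.05 at 5 h (SE 0.036, adjusted p = 0.24, edgeR) and of -0.07 at 24 h (SE 0.036, adjusted p = 0.0763, edgeR). The value at 24 h was called without the replicate 2 sample of the H2O group (-0.09, adjusted p = 0.0496, edgeR), and it was also called at -0.09 with median-of-ratios scaling (adjusted p = 0.0327, edgeR) and at -0.08 with only the groups compared in the fit (adjusted p = 0.042, edgeR). On library-size scaling the values against H2O were 0.25 at 5 h and 0.11 at 24 h, both called. The difference between 24 h and 5 h was -0.12 and passed the test (SE 0.036, adjusted p = 0.00843, edgeR). All clr3 values include reads that cannot be told apart from those of clr3-antisense-1. The other listed partner of the complex, the remodeller gene mit1, was 0.24 higher at 5 h (SE 0.051) and at 24 h (SE 0.051) against H2O, and it shares reads with mit1-antisense-1.

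The gene sir2 (SPBC16D10.07c), for an NAD-dependent histone deacetylase, had 18.7, 18.9, 18.6 and 17.9 normalised RPKM in H2O, 14.9, 15.6, 15.6 and 14.7 at 5 h, and 9.40, 10.6, 10.46 and 10.20 at 24 h. The groups stepped down without overlap. Relative to H2O, the listed counts gave a log2 fold change of -0.28 at 5 h (SE 0.048, adjusted p = 7.81e-05, edgeR) and -0.86 at 24 h (SE 0.049, adjusted p = 3.86e-10, edgeR). They gave -0.58 between 24 h and 5 h (SE 0.049, adjusted p = 1.23e-07, edgeR). With library-size scaling the 5 h value was -0.08 and was not called (adjusted p = 0.197, edgeR).

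The direction of sir2 against H2O depends on how reads of its neighbour are treated. The zinc transporter gene zrt1 (SPBC16D10.06) overlaps sir2 by 114 bases on the opposite strand. It had between 9103 and 10574 reads per sample in H2O, between 1486 and 1797 at 5 h and between 969 and 1072 at 24 h. On the log2 scale zrt1 was thus lower than in H2O, at -2.73 after 5 h and -3.41 after 24 h. If zrt1 reads were spread evenly over its 2132 listed bases, 5.35% of them would fall in the overlap, which is 51.8 to 57.3 reads per 24 h sample and 487 to 565 per H2O sample. This estimate makes up 52.3% of the sir2 count in H2O, 9.60% at 5 h and 8.97% at 24 h. Without it, sir2 kept 413 to 533 reads in H2O, 820 to 865 at 5 h and 500 to 590 at 24 h. The remaining reads gave a log2 fold change of 0.64 at 5 h against H2O (SE 0.066, adjusted p = 4.98e-07, edgeR) and of 0.069 at 24 h against H2O (SE 0.067, adjusted p = 0.356, edgeR). They gave -0.57 between 24 h and 5 h (SE 0.065, adjusted p = 2.65e-06, edgeR), beside -0.58 with all reads. Coverage along zrt1 was not analysed here, so the direction of sir2 against H2O cannot be told from these counts, while its fall at 24 h against 5 h was called with and without the subtraction.

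**Figure D4:**
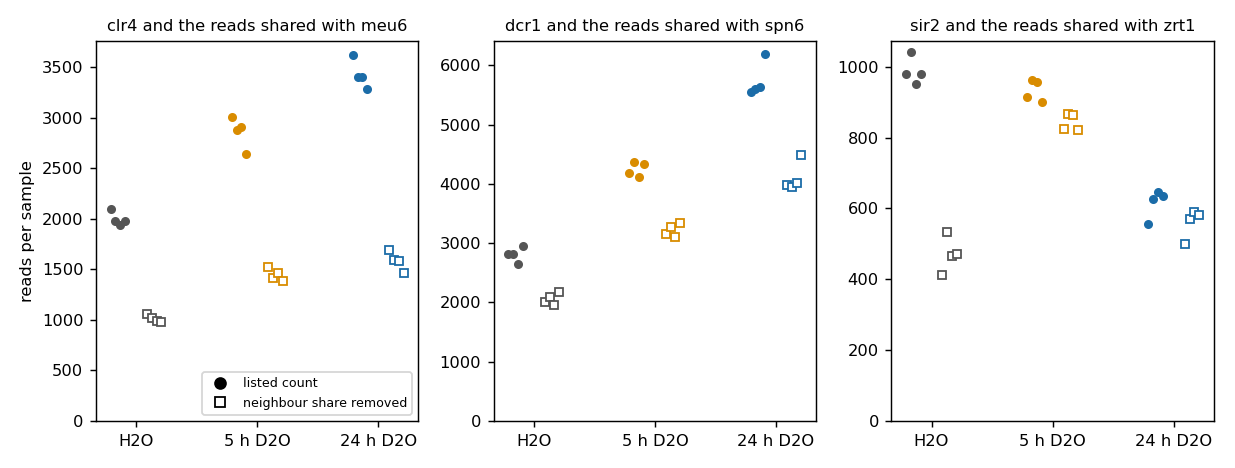
Reads per sample (vertical axes, from 0) for clr4, dcr1 and sir2: filled circles are the listed counts and open squares are the counts after the estimated reads of the overlapping gene were removed. These counts carry no TMM scaling between samples. The squares of clr4 and dcr1 lie higher at 24 h than in H2O, as the circles do. Those of clr4 overlap between 5 h (1386 to 1526) and 24 h (1466 to 1689). For sir2 the H2O squares lie at 413 to 533, under those at 5 h.

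The ratio of clr3 to sir2 shared this limit. With listed counts it was 1.86, 1.79, 1.94 and 2.01 in H2O, 2.39, 2.47, 2.34 and 2.36 at 5 h, and 3.59, 3.22, 3.16 and 3.22 at 24 h. The log2 difference was 0.33 at 5 h against H2O and 0.79 at 24 h against H2O, and 0.46 at 24 h against 5 h, each with an exact permutation p of 0.0286 (adjusted 0.0381). With the estimated zrt1 reads removed the differences against H2O were -0.60 at 5 h (exact permutation adjusted p = 0.0381) and -0.14 at 24 h (exact permutation adjusted p = 0.218).

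By listed counts, the RNA interference genes showed the largest rises among the members at both times against H2O. The gene ago1 (SPCC736.11), for the Argonaute protein that carries the small RNAs, had 22.7, 23.0, 23.1 and 22.0 normalised RPKM in H2O, 30.1, 32.9, 32.6 and 36.3 at 5 h, and 48.1, 49.6, 48.6 and 51.3 at 24 h. Every group lay above the previous one. Against H2O, ago1 had a log2 fold change of 0.54 at 5 h (SE 0.048, adjusted p = 1.00e-07, edgeR) and 1.12 at 24 h (SE 0.048, adjusted p = 1.63e-11, edgeR), the second being 2.17-fold. Between 24 h and 5 h it was 0.58 (SE 0.046, adjusted p = 7.00e-08, edgeR). Of all features tested, 89.3% had a lower log2 fold change than ago1 at 24 h against H2O.

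The gene dcr1 (SPCC188.13c), for the Dicer ribonuclease that cuts double-stranded RNA into small RNAs, had 20.6, 19.7, 19.8 and 20.7 normalised RPKM in H2O, 26.3, 27.2, 25.8 and 27.1 at 5 h, and 36.0, 36.3, 35.0 and 38.2 at 24 h. The groups did not overlap. Its rise relative to H2O had a log2 fold change of 0.40 at 5 h (SE 0.038, adjusted p = 2.30e-07, edgeR) and 0.85 at 24 h (SE 0.038, adjusted p = 3.00e-11, edgeR). A further difference of 0.45 separated 24 h from 5 h (SE 0.038, adjusted p = 1.13e-07, edgeR). The septin gene spn6 (SPCC188.12) overlaps the 5626 listed bases of dcr1 by 1903 bases on the opposite strand, and it was itself 0.95 higher at 24 h against H2O (SE 0.051). With its reads removed, dcr1 kept 1961 to 2180 reads per sample in H2O, 3100 to 3341 at 5 h and 3951 to 4481 at 24 h. The log2 fold changes against H2O were then 0.44 at 5 h (SE 0.038) and 0.81 at 24 h (SE 0.038).

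The ratio of dcr1 to ago1 was 0.906, 0.856, 0.855 and 0.941 in H2O, 0.872, 0.827, 0.792 and 0.746 at 5 h, and 0.748, 0.732, 0.720 and 0.746 at 24 h. All 24 h samples lay below all H2O samples, and the 5 h samples overlapped both groups. The log2 difference was -0.27 at 24 h against H2O (exact permutation p = 0.0286, adjusted 0.0381). It was -0.14 at 5 h against H2O (exact permutation p = 0.0857, adjusted 0.0935) and -0.13 at 24 h against 5 h (exact permutation p = 0.0571, adjusted 0.0686), and neither passed. Both were -0.17 with an adjusted exact permutation p of 0.0381 when 1 sample of the 5 h group was left out, replicate 1 in the comparison with H2O and replicate 4 in the comparison of 24 h with 5 h. With the spn6 reads removed the difference between 24 h and 5 h was -0.22 (adjusted exact permutation p = 0.0381).

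The telomere gene taz1 (SPAC16A10.07c) had 25.7, 24.1, 24.7 and 23.0 normalised RPKM in H2O, 25.0, 27.02, 28.5 and 24.9 at 5 h, and 20.4, 19.3, 17.5 and 17.5 at 24 h. The H2O and 5 h samples overlapped and the 24 h samples lay below both. Against H2O, taz1 had a log2 fold change of 0.11 at 5 h (SE 0.058, adjusted p = 0.0952, edgeR) and of -0.38 at 24 h (SE 0.059, adjusted p = 2.67e-05, edgeR). The value for 24 h compared with 5 h was -0.50 (SE 0.059, adjusted p = 4.10e-06, edgeR). Like chp2, it was called lower at 24 h in both comparisons and was not called at 5 h, where library-size scaling gave 0.31 and a call.

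Compared per length, the order of the members differed between groups. In H2O swi6 was the most abundant at 68.5 ± 4.97 normalised RPKM (SD, n = 4), above 73.3% of protein-coding features. It was followed by clr3 at 35.1 ± 1.03. The genes clr2 and taz1 overlapped in range, as did taz1 and ago1, and sir2, clr4 and clr1 overlapped in turn. By listed counts the least abundant was chp2 at 13.8 ± 1.03, above 12.3% of protein-coding features. At 24 h ago1 came first at 49.4 ± 1.39, above 60.2% of protein-coding features, followed without overlap by swi6 at 42.5 ± 2.30, dcr1 at 36.4 ± 1.37 and clr3 at 33.4 ± 0.603. The last were chp2 at 11.5 ± 0.672 and sir2 at 10.159 ± 0.532, whose ranges overlapped. The per-length values of clr4 and dcr1 rest on listed features that extend over meu6 and spn6. The place of sir2 in H2O rests on a count of which an estimated 52.3% are zrt1 reads, so its order relative to chp2 there cannot be told.

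Across the 12 samples the log2 CPM (counts scaled to library size after TMM normalisation) of ago1 and dcr1 had a Pearson r of 0.990. That of swi6 and dcr1 had an r of -0.976. These describe 3 group steps shared by genes measured in the same libraries. Each member was also compared with 4914 or 4915 protein-coding genes of sufficient abundance that do not overlap it. The r given is the highest over these, so a high value does not by itself mark a link. For each member the gene with the most similar profile over the 12 samples was found. For ago1 this was pik3 (r = 0.996), for dcr1 SPBC1685.05 (r = 0.995), for clr1 sro7 (r = 0.995), for clr4 mrs2 (r = 0.988) and for swi6 rad2 (r = 0.985). For sir2 it was SPAC26A3.17c (r = 0.988), for clr2 SPBC17D1.01 (r = 0.982), for taz1 avt5 (r = 0.974), for chp2 vps66 (r = 0.945) and for clr3 spo20 (r = 0.900). The match of sir2 uses its listed counts, whose H2O values hold the estimated zrt1 reads. The closest partner did not always change by as much, since SPBC1685.05 was 2.18 higher on the log2 scale at 24 h against H2O and dcr1 was 0.85 higher.

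Another 43 genes of the silencing pathways were described beside the members. At 5 h against H2O 16 of the 43 were higher and 15 lower, at 24 h against H2O 16 were higher and 18 lower, and at 24 h against 5 h 14 were higher and 16 lower. The shares called were 72.1%, 79.1% and 69.8%, near those of all features, and the median log2 changes were -0.02, 0.02 and -0.02. The near-even split against H2O depended on TMM scaling. When library size alone was used, rises outnumbered falls by 27 to 6 in the 5 h comparison with H2O. In the 24 h comparison with H2O they did so by 22 to 9. Splits given for single lists in the next paragraphs are those with TMM scaling. Genes named in the next paragraphs beyond the naming rule were chosen after their values were seen. Of those named, tas3, chp1, rdp1, raf2, paf1, lsd1, lsd2, clr5, ssm4, tlh1, tlh2, mat3-Mc, mat3-Mi, mat2-Pc and mat2-Pi overlap no other listed feature. The others overlap at least 1.

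The other RNA interference genes moved in both directions. Of 12, 7 were higher and 3 lower at 5 h against H2O, beside 39.1% and 37.3% of all features. At 24 h against H2O 3 were higher and 5 lower, beside 41.8% and 39.4% of all features. The gene tas3, for a subunit of the RITS complex in which Ago1 works, was 0.49 higher at 5 h (SE 0.045, adjusted p = 1.42e-07, edgeR) and 0.19 higher at 24 h (SE 0.045, adjusted p = 0.00127, edgeR). The third RITS gene, chp1, whose product binds the methyl mark, was lower, at -0.23 and -0.35. The gene arb1, for an Argonaute-binding chaperone, was 0.34 higher at 5 h against H2O and 0.27 lower at 24 h against H2O, and its count cannot be told apart from that of arb1-antisense-1; on library-size scaling the 24 h value was -0.08 and not called. The poly(A) polymerase gene cid14 was lower at both times, at -0.69 and -0.70 (SE 0.033 each), with 42.7 to 46.5 normalised RPKM at 5 h, against 70.2 to 73.0 in H2O. It overlaps cid14-antisense-1 by 774 of its 2366 listed bases. The RNA-dependent RNA polymerase gene rdp1 had values of 0.14 at 5 h, which passed (adjusted p = 0.00428, edgeR), and 0.02 at 24 h, which did not (adjusted p = 0.707, edgeR). The largest rise of these 12 at 24 h against H2O was that of hrr1, at 0.43 (SE 0.035, adjusted p = 2.26e-08, edgeR).

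In CLRC, the complex in which Clr4 works, raf2 was 0.62 higher at 24 h against H2O (SE 0.052, adjusted p = 3.35e-08, edgeR) and -0.06 at 5 h, where it was not called. The genes rik1 and pcu4 were lower at 24 h, at -0.36 and -0.24. The list of other SHREC and deacetylase genes had 3 of 5 higher and 1 lower at 5 h against H2O, beside 39.1% and 37.3% of all features. At 24 h against H2O 2 were higher and 2 lower, beside 41.8% and 39.4% of all features. Among these 5 genes, the class I gene clr6 was 0.36 lower at 24 h against 5 h (SE 0.079, adjusted p = 0.00094, edgeR). Its rise of 0.20 at 5 h against H2O (adjusted p = 0.0338, edgeR) was lost when replicate 1 or 2 of the H2O group or replicate 2 or 3 of the 5 h group was left out, with values of 0.13 to 0.20 and a highest adjusted p of 0.119. The gene cys11 overlaps clr6 by 141 of the 1542 listed bases of clr6. Its mean count was 4314, beside 1267 for clr6, and its reads were not removed from clr6.

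Taz1's partners at telomeres moved in both directions. Compared with H2O, at 24 h rap1 was 0.59 higher, tpz1 0.28 higher and poz1 0.14 higher, while rif1 and pot1 were lower at -0.40 and -0.38, and ccq1 had 0.04 and was not called. Of 6 genes whose products oppose silencing, 3 were higher and 2 lower at 5 h against H2O, beside 39.1% and 37.3% of all features. At 24 h against H2O 4 were higher and 1 lower, beside 41.8% and 39.4% of all features. The largest rises of this list at 24 h were those of lsd2 (0.77, SE 0.046) and lsd1 (0.58, SE 0.053). The acetyltransferase gene mst2 was 0.47 higher at both times against H2O, and the demethylase-like gene epe1 was 0.25 higher at 24 h. By contrast, paf1 was lower at 5 h and at 24 h against H2O, at -0.30 and -0.18. The gene leo1 was lower at 5 h, at -0.21, and was not called at 24 h. The count of mst2 cannot be separated from that of sec3, which covers nearly all of it.

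The list of chromatin assembly and boundary genes had 0 of 10 higher and 6 lower at 5 h against H2O, beside 39.1% and 37.3% of all features. At 24 h against H2O 3 were higher and 6 lower, beside 41.8% and 39.4% of all features. The silencing gene clr5 was the 1 gene of that list with a 2-fold change at 5 h, with 49.8, 42.4, 38.2 and 41.4 normalised RPKM in H2O, 20.5, 18.0, 16.8 and 21.6 at 5 h, and 45.3, 34.1, 37.1 and 38.8 at 24 h. The 5 h samples lay below all others, and the 24 h samples overlapped those in H2O. Against H2O, clr5 had a log2 fold change of -1.16 at 5 h (SE 0.10, adjusted p = 7.43e-08, edgeR) and of -0.15 at 24 h (SE 0.098, adjusted p = 0.177, edgeR). The 24 h level was above that at 5 h, by 1.01 (SE 0.10, adjusted p = 6.32e-07, edgeR). Without the replicate 1 sample of the 24 h group, the value at 24 h against H2O was -0.23 and was called (adjusted p = 0.0369, edgeR).

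**Figure D5:**
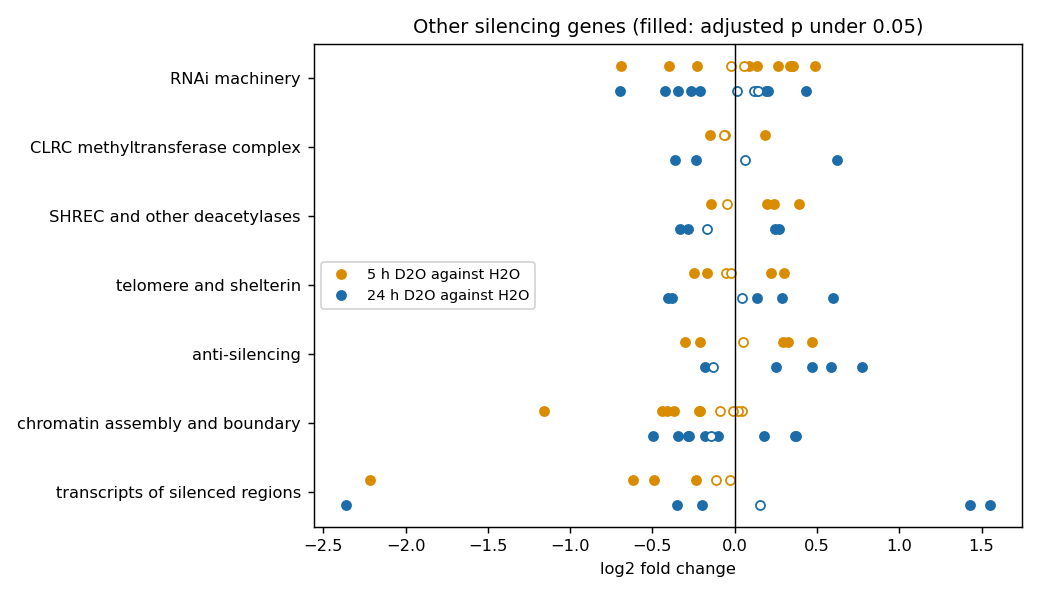
Log2 fold changes (horizontal axis) of the other silencing genes by list, with each point a gene, at 5 h and 24 h in D2O against H2O; filled points have an edgeR adjusted p under 0.05. Most points lie within 0.8 of 0 on both sides, apart from clr5 at -1.16 at 5 h and mcp7, tlh1 and tlh2 among the transcripts of silenced regions.

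A few transcripts of regions that heterochromatin silences were also read. Of 9 such features 6 passed the filter on low counts, and of these 0 were higher and 4 lower at 5 h against H2O, beside 39.1% and 37.3% of all features. At 24 h 2 were higher and 3 lower, beside 41.8% and 39.4% of all features. The helicase-like genes tlh1 and tlh2 lie next to telomeres and are near-identical copies, so their counts are uncertain. They are the 2 features higher at 24 h and are among the 4 lower at 5 h. These tallies may therefore count the same signal more than once. The gene tlh1 had 135 to 167 reads per sample in H2O, 114 to 128 at 5 h and 466 to 521 at 24 h. Relative to H2O its log2 fold change was -0.49 at 5 h (SE 0.099, adjusted p = 0.000404, edgeR) and 1.55 at 24 h (SE 0.087, adjusted p = 3.67e-10, edgeR). For tlh2 the values were -0.62 (SE 0.095) and 1.43 (SE 0.084). The meiotic genes mei4 and ssm4 lie in heterochromatin islands. At 24 h against H2O mei4 was 0.35 lower (SE 0.085, adjusted p = 0.00137, edgeR) and ssm4 0.20 lower (SE 0.087, adjusted p = 0.0454, edgeR). The meiotic gene mcp7 had 39.0, 40.1, 39.6 and 41.7 normalised RPKM in H2O, 8.59, 8.50, 7.98 and 9.38 at 5 h, and 7.56, 7.53, 6.51 and 9.52 at 24 h. Every D2O sample lay far below every H2O sample. Relative to H2O its log2 fold change was -2.22 at 5 h (SE 0.087, adjusted p = 1.35e-11, edgeR) and -2.36 at 24 h (SE 0.088, adjusted p = 3.82e-12, edgeR), and it overlaps ubp8 by 596 of its 1463 listed bases. Of the listed features of the silent mating-type region, only mat3-Mc passed the filter on low counts. This feature had 564 to 873 reads per sample and was not at a low level. Its mean was 47.7 normalised RPKM in H2O, 40.4 at 5 h and 53.0 at 24 h. Against H2O its log2 fold change was -0.24 at 5 h (SE 0.075, adjusted p = 0.00999, edgeR) and 0.15 at 24 h (SE 0.074, adjusted p = 0.0669, edgeR), and 24 h compared with 5 h gave 0.39 (SE 0.074, adjusted p = 0.000308, edgeR). The cassettes of this region have near-identical copies at the expressed mating-type locus, so these counts are uncertain too. The feature mat3-Mi, listed under the symbol mat3-Mm, had only 0 to 6 reads per sample and was not tested. The features mat2-Pc and mat2-Pi were listed at 0 reads in all 12 samples.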

How the data were processed

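RNA was sequenced from 12 samples. Per the file headers, the authors deposited 1 table per sample that lists every feature with its length, its raw read count and its RPKM. RPKM was recomputed from lengths and counts to within a relative difference of 4.96e-06 and was not tested separately. Reads were mapped with BWA 0.7.12, per the submitters' processing notes; the counting program, genome build and strandedness are not given in the sources used here. Features were matched to RefSeq by identifier (6839, 97.5%) for names, classes and overlaps.

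Counts were tested with edgeR 4.0.16 (limma 3.58.1, R 4.3.3): filterByExpr with a minimum of 10 counts, TMM scaling (factors 0.879 to 1.07), 1 model over all samples with group as its term. Standard errors (SE) were taken as the size of the log2 fold change over the root of the F statistic. On 6593 simulated features, 92% of changes of 0.5 on the log2 scale and 100% of changes of 1 were recovered for 5 h against H2O. The simulation changed 200 features, equally up and down, with the same spread for all, and 6 unchanged features were called. In the data 76.4% of features were called at 5 h, so these rates do not measure recovery there. Neighbour reads were estimated as the neighbour's count times the overlapped share of its listed length. Other genes were named if they were among the 2 largest rises or falls per comparison (mean log2 CPM of at least 3, groups not overlapping) or changed at least 2-fold. Members and lists were chosen with earlier results of these data known. Intervals from counting cover counting error only. Alternatives included DESeq2 1.42.0, other scalings and filters, a replicate block and leaving out each sample.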

Additional observations from a re-analysis of the deposited data

Results flagged for a closer look

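In 42 groups of 4 samples (10 members and 4 ratios in 3 groups), 3 had a sample far from the other 3, where chance gives about 1 in 20. The normalised level of clr1 in replicate 2 of the 24 h group was 24.7 RPKM, under the other samples of that group. In the same sample the log2 ratio of swi6 to chp2 was 1.84, also the lowest of its group. In replicate 1 of the 24 h group the log2 ratio of clr3 to sir2 was 1.84, the highest of its group.

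Levels differed between the 24 h and 5 h groups, by the edgeR test of 24 h against 5 h, for 9 members, beside 68.3% of all features. The log2 difference was positive for ago1 (0.58), dcr1 (0.45), clr1 (0.38) and clr4 (0.28). It was negative for sir2 (-0.58), taz1 (-0.50), chp2 (-0.39), swi6 (-0.37) and clr3 (-0.12).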

How the results depend on the processing

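The counts of called members stayed within 7 to 8 (5 h against H2O), 8 to 10 (24 h against H2O) and 9 (24 h against 5 h) under all alternatives run. With the replicate number as a block they were 7, 9 and 9. Same-numbered samples deviated together in some pairs and not in others, with correlations from -0.183 to 0.585. The highest was for replicate 2 between 24 h and 5 h, and replicate 4 at 24 h had 0.412 with each other group. The labels do not say what a number marks, so the numbers were not treated as pairing the samples. The block also brought calls at 24 h against H2O for clr5 (-0.15, edgeR adjusted p = 0.0325) and clr6 (-0.17, edgeR adjusted p = 0.0146). For ratios, a paired exact sign-flip test of 4 pairs is too small to pass the threshold, so the 9 called differences had an adjusted p of 0.136 with unchanged size: -0.45 and -0.43 (swi6 to chp2, 5 h and 24 h against H2O), 0.33, 0.79 and 0.46 (clr3 to sir2, 5 h and 24 h against H2O, 24 h against 5 h), -0.27 (dcr1 to ago1, 24 h against H2O) and 0.63, 1.28 and 0.65 (clr4 to swi6). Library-size scaling turned clr3 at 24 h against H2O to 0.11. Subtracting overlapping reads, an alternative added after the data were seen, turned sir2 to 0.64 at 5 h and 0.069 at 24 h against H2O, turned the ratio of clr3 to sir2 to -0.60 and -0.14, and brought the ratio of dcr1 to ago1 at 24 h against 5 h to -0.22 (called). Leaving out 1 sample gave ranges of -0.54 to -0.40 at 5 h and -0.52 to -0.38 at 24 h against H2O for swi6 to chp2, where the adjusted exact p reached 0.0762, and for dcr1 to ago1 of -0.17 to -0.10 at 5 h against H2O and -0.17 to -0.10 at 24 h against 5 h. Of 360 fold changes of members with 1 sample left out, 3 gained a call and 0 lost one. Each member had at least 522 listed reads per sample, and sir2 at least 413 after the subtraction; the effect of depth on the calls was not tested.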
